A study of Mus musculus with 6 samples.

Results

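Contactins and the L1 family are cell adhesion molecules of the immunoglobulin superfamily that neurons carry on their growing axons. The genes described here were chosen by symbol, as 6 contactins (Cntn1, Cntn2, Cntn3, Cntn4, Cntn5 and Cntn6), 3 members of the L1 family (L1cam, Nrcam and Nfasc) and the related Ncam1. They are 10 of 19054 genes named for a probe on the array, and 29 of its 45276 probes were annotated to them. The choice used no threshold on measured values, but it was made with earlier results of this same comparison known, so the differences between genotypes below are a description and support nothing by themselves.

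The tissue was rhombomere 1, the most anterior segment of the hindbrain, dissected at E12.5 from embryos of the mouse strain ICR (CD-1). The mutant embryos were En1-cre, Gata2 flox/flox. The controls, titled wildtype, were En1-cre, Gata2 flox/+ in the series' design text, so every embryo carried the recombinase and at least 1 floxed allele of the transcription factor gene Gata2. En1-cre acts in the midbrain and rhombomere 1, and which cells had lost Gata2 was not measured here. There were 3 pools per genotype with 6 dissected pieces in each, and every pool was read on its own Illumina array (Mouse WG-6), so that differences between embryos of a pool cannot be seen. The study asked how expression in this tissue differs between the genotypes.

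Contactins are held at the cell surface by a glycolipid anchor and have no cytoplasmic part. L1-family proteins cross the membrane and bind ankyrin, which ties them to the spectrin cytoskeleton, and Ncam1 is the main carrier of polysialic acid in the embryonic brain. The families bind each other on the same or on neighbouring cells, and in the hindbrain they are known for roles in axon growth, fasciculation and the crossing of the midline.

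Arrays were alike in quality, with 42.8% to 45.1% of probes above background and raw median intensities of 69.8 to 76.7. The tissue label was checked against its markers. En1 and En2, patterning factors of the midbrain and rhombomere 1, Gbx2, a factor of the anterior hindbrain, and Fgf8, a signal of the isthmus, each had a probe above background on all 6 arrays, while Pax2 and Pax5 had none above background on any array. Otx2, a factor of the midbrain, was also above background on all 6 arrays, with means of 8.32 in controls and 8.34 in mutants on the log2 scale. Of the other markers read for neighbouring regions, Hoxa2 was above background on 3 of 6 arrays at both probes. It was 0.45 and 0.34 higher in the mutants (limma adjusted p = 0.689 and 0.788). Hoxb2 was above background on 4 arrays and differed by -0.20 (adjusted p = 0.746), and Hoxb3 was above background on 0. The probe for Gata2 was higher in the mutants, at 10.89 ± 0.17 against 10.53 ± 0.16 (SD, n = 3; limma adjusted p = 0.418), and since it is not known whether this probe lies in the deleted stretch, it checks nothing. Values below are normalized, background-corrected log2 intensities, a difference is mutant minus control with its standard error (SE) from the fit, and n is 3 pools per group. A probe was counted as above background at a detection p-value under 0.05. Levels of different probes are not comparable, because each probe binds its target with its own strength.

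Of the 29 probes, 14 were above background on at least 3 of 6 arrays and entered the test, and they covered 8 of the 10 genes. Cntn1, Cntn3 and 1 probe of Ncam1 had the differences farthest from 0, at -0.67, -0.54 and -0.53. Cntn2, Cntn5, Cntn6 and the other Ncam1 probes had overlapping groups. None of the 14 passed an adjusted p of 0.05 (limma, Benjamini-Hochberg over all 19936 tested probes), where 0.145% of all tested probes passed. At an unadjusted p under 0.05 there were 4, all lower in the mutants, against 8.84% of all tested probes in either direction and 4.86% lower. The 3 mutant values lay below the 3 control values at 4 probes and above them at 0, against 6.6% and 7.42% of all tested probes. Negative differences were found at 9 of the 14, against 47.9% of all tested probes, and the median difference was -0.16 beside 0.01 over all tested probes. Nothing is read from these counts, since the genes were chosen with this contrast known. Cntn3 and the Nrcam probe ILMN_1212898, both with mutant values below all control values, also met the filter through the control arrays.

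**Figure D1:**
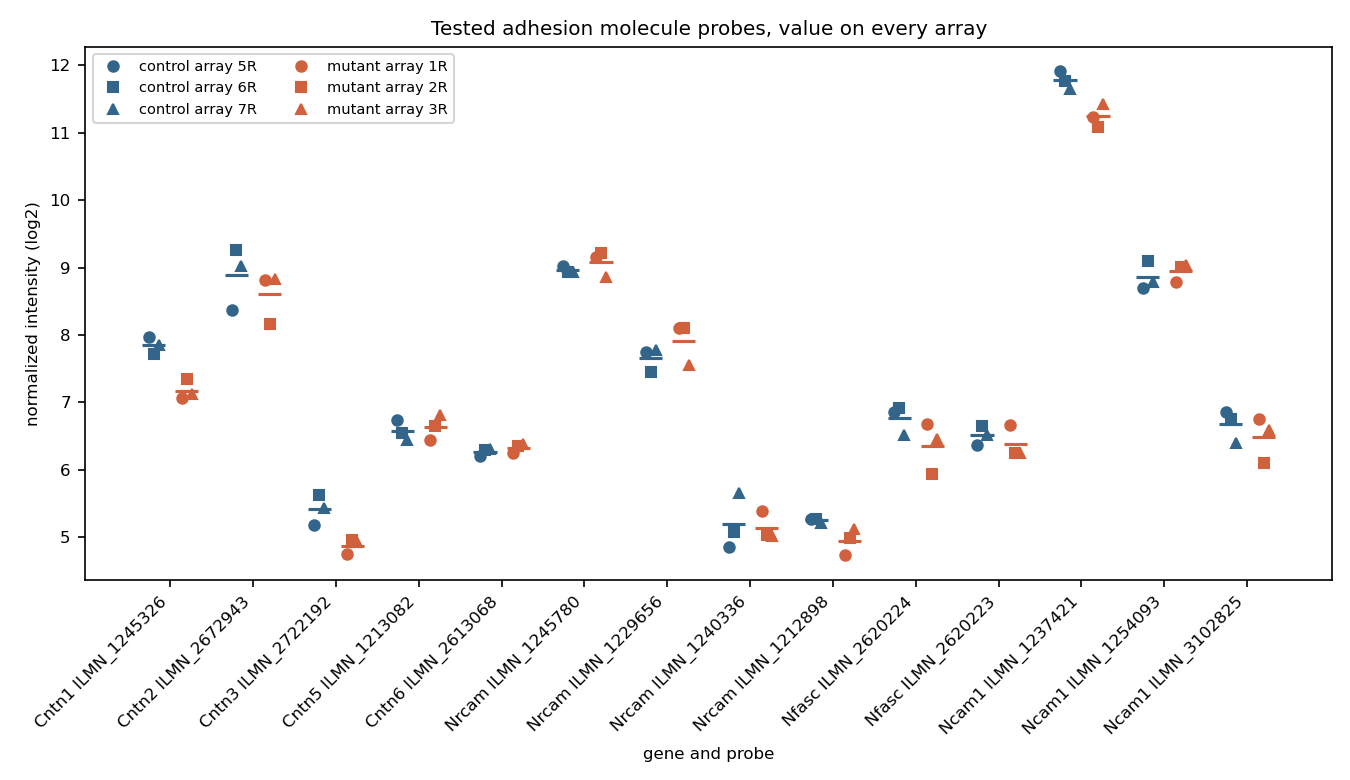
Normalized log2 intensity of the 14 tested probes on every array, with 3 control and 3 mutant arrays as separate symbols and a line at each group's mean. For Cntn1, Cntn3, the Nrcam probe ILMN_1212898 and the Ncam1 probe ILMN_1237421 all 3 mutant points lie below all 3 control points, and for the other 10 probes the groups overlap.

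Cntn1 encodes contactin 1, also called F3, which binds members of the Caspr family and is a part of the junction between axon and myelin in later life. Its only probe read 7.97, 7.72 and 7.85 on control arrays 5R, 6R and 7R, and 7.06, 7.35 and 7.12 on mutant arrays 1R, 2R and 3R. All mutant pools were below all control pools, and the highest mutant value, on array 2R, stayed below the lowest control value, on array 6R. The means were 7.85 ± 0.12 and 7.18 ± 0.15 (SD, n = 3), a difference of -0.67 ± 0.13 (SE), or a 1.59-fold lower signal in the mutants. Before normalization the same probe read 303, 264 and 252 intensity units in controls and 189, 223 and 186 in mutants. Leaving out 1 array gave differences of -0.75 to -0.61. Cntn1 did not pass at the probe level, but it passed when each gene was represented by the mean of its probes, at an adjusted p of 0.0477 over 10524 genes. Its difference was the same -0.67 there, since it has 1 probe. With the brightest probe per gene over the same 10524 genes, its adjusted p was 0.0659 (limma). The SE from the fit was 0.114 with the mean and 0.128 with the brightest probe, so the pass came with a smaller SE. Cntn1 was chosen with this contrast known, so the pass supports nothing by itself. In bulk tissue, fewer cells of a type and less RNA per cell cannot be told apart.

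Of the 13 marker lists read, 5 had summed levels whose groups did not overlap, and these sums weight bright probes most and were not tested. For single probes, the groups did not overlap at 6.6% of all tested probes with mutants lower and at 7.42% with mutants higher. No such share was obtained for sums. Of 13 pan-neuronal markers 11 were tested, and their summed linear signal was 36810 to 40520 in controls and 34450 to 36640 in mutants, while 1 gene, Syt1, passed over all probes, 18 of 25 probes were negative and their median difference was -0.08. Of 13 serotonergic neuron genes 11 were tested, with a sum of 6466 to 8303 in controls and 3554 to 4242 in mutants, and 6 genes fell. Fev and Htr1a were not tested. This list includes the targeted gene Gata2, whose probe had the highest mean of the tested probes in both groups, at 10.53 and 10.89. Both sums thus include the signal of Gata2, which was higher in the mutants. Of 9 neural progenitor markers 8 were tested, with a sum of 8616 to 9988 in controls and 10260 to 11490 in mutants, while 0 genes passed, 4 of 11 probes were negative and the median difference was 0.06. The sum of 3 tested motor neuron markers, of 6, was higher in mutants, at 1102 to 1119 against 881 to 1073, and that of 4 tested microglial markers, of 5, was lower, at 255 to 266 against 279 to 325. In both of these lists 0 genes passed, and the motor neuron sum came mostly from Isl1, the brightest of its probes. The GABAergic list had overlapping sums, at 9034 to 11370 in controls and 7204 to 10100 in mutants. All 7 of its tested probes were lower in the mutants, with a median difference of -0.37, and 0 of its genes passed. The part of these differences in the values of Cntn1, Cntn3 and Ncam1 was not tested.

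Cntn3, known as BIG-1 or Pang, is a contactin that supports neurite growth in culture. Its probe was close to background. It read 5.19, 5.63 and 5.44 in controls and 4.75, 4.95 and 4.92 in mutants. The groups did not overlap, and the probe was above background on all 3 control arrays but on 1 of 3 mutant arrays. It thus met the filter of 3 arrays through the controls, the group where it read higher. The means were 5.42 ± 0.22 and 4.88 ± 0.11 (SD, n = 3), a difference of -0.54 ± 0.16 (SE). The size depends on the processing. Without background correction the difference was -0.24, with an offset of 50 it was -0.28, and in the authors' normalized table it was -0.23. Leaving out 1 array gave -0.65 to -0.44.

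Since Cntn1 and Cntn3 were the contactins whose groups did not overlap, the 250 bases before their annotated starts are shown, from RefSeq (assembly GRCm38.p6), 5′ to 3′ on the gene's strand. Cntn1 has 3 annotated starts and Cntn3 has 1. Capitals mark a GATA motif, searched on both strands as the letters GATA with A or T just before and A or G just after, where matches could overlap.
Cntn1, chr15:92050915-92051164, plus strand: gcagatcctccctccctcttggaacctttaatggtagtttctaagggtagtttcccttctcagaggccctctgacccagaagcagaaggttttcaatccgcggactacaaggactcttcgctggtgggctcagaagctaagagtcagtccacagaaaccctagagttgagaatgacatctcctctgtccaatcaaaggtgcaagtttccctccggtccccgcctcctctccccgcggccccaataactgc
Cntn1, chr15:92127878-92128127, plus strand: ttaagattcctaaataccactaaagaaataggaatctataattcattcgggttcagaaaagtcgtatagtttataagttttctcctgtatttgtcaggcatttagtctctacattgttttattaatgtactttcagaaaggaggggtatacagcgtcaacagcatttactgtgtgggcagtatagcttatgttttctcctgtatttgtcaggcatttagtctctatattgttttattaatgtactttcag
Cntn1, chr15:92161107-92161356, plus strand: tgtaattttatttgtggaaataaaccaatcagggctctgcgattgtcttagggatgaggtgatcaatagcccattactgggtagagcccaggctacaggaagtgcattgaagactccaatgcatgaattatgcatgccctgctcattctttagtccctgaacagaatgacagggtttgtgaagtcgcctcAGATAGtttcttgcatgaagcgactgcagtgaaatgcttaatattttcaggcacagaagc
Cntn3, chr6:102464668-102464917, minus strand: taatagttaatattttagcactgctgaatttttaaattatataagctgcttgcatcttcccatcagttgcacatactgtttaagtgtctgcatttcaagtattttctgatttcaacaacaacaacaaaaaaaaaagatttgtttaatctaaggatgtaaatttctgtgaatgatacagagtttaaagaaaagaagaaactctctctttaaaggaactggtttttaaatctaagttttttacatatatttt
The third Cntn1 window held 1 match, and the other 3 windows held 0. Ncam1 had no promoter window and was not searched. Across the 9 genes with a window, 4 of 15 windows held a match, 26.7%, and 26.5% of all 32851 promoter windows of the same length did. The other matches lay before both starts of L1cam, which had no probe above background, and before 1 of 2 starts of Nfasc. The L1cam windows overlap and share a match. Counted by gene, 3 of 9 had a match, 33.3%, beside 29.7% of all 27025 genes. A match is a description of these letters and not a bound site.

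Cntn3 lies on chromosome 6, the chromosome of Gata2, with 83 protein-coding genes between them in the gene order of GRCm38.p6. Chl1, Cntn6 and Cntn4 follow Cntn3 there, with 0 protein-coding genes between neighbours. Cntn6, or NB-3, a contactin best known from the cerebellum, read 6.20, 6.29 and 6.32 in controls and 6.26, 6.35 and 6.38 in mutants. These groups overlapped, and the difference was 0.06 ± 0.13 (SE). The pools of a genotype lay closer together for Cntn6 than for most probes: its within-group SD was 0.06, and 1.79% of 3575 tested probes with a mean within 0.5 of its own had a smaller one. Chl1, the fourth gene of the L1 family, differed by -0.19 ± 0.13 (SE) and had overlapping groups. Cntn4, or BIG-2, which takes part in the targeting of olfactory axons, had 4 probes, and 0 of them were above background on any array. Their values of 4.28 to 4.55 lie at background in both genotypes, so Cntn4 gives no comparison.

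Cntn2 encodes TAG-1, a contactin of outgrowing axons that binds L1cam and Nrcam. Its tested probe read 8.37, 9.26 and 9.02 in controls and 8.82, 8.16 and 8.83 in mutants. Control array 5R was low and control array 6R high, so that the groups overlapped widely, with means of 8.88 ± 0.46 and 8.60 ± 0.39 (SD, n = 3). The difference of -0.28 ± 0.22 (SE) ran from -0.54 without control array 5R to -0.06 without mutant array 2R. Cntn2 was among the most variable genes between pools of the same genotype. Its within-group SD of 0.42 exceeded that of 98.9% of the 2492 tested probes with a mean within 0.5 of its own. This measure does not use the contrast between genotypes. The other 3 Cntn2 probes, annotated to the same transcript, were above background on 0 or 1 of 6 arrays and read 4.31 to 5.03.

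Cntn5, or NB-2, a contactin known from the auditory pathway, had 3 probes, of which 1 was tested. It read 6.74, 6.54 and 6.45 in controls and 6.44, 6.64 and 6.81 in mutants. The groups overlapped almost fully, and the difference was 0.06 ± 0.15 (SE). Its sign turned in 2 of 16 alternatives, with a lowest value of -0.04. The other 2 probes of Cntn5 were above background on 0 of 6 arrays.

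**Figure D2:**
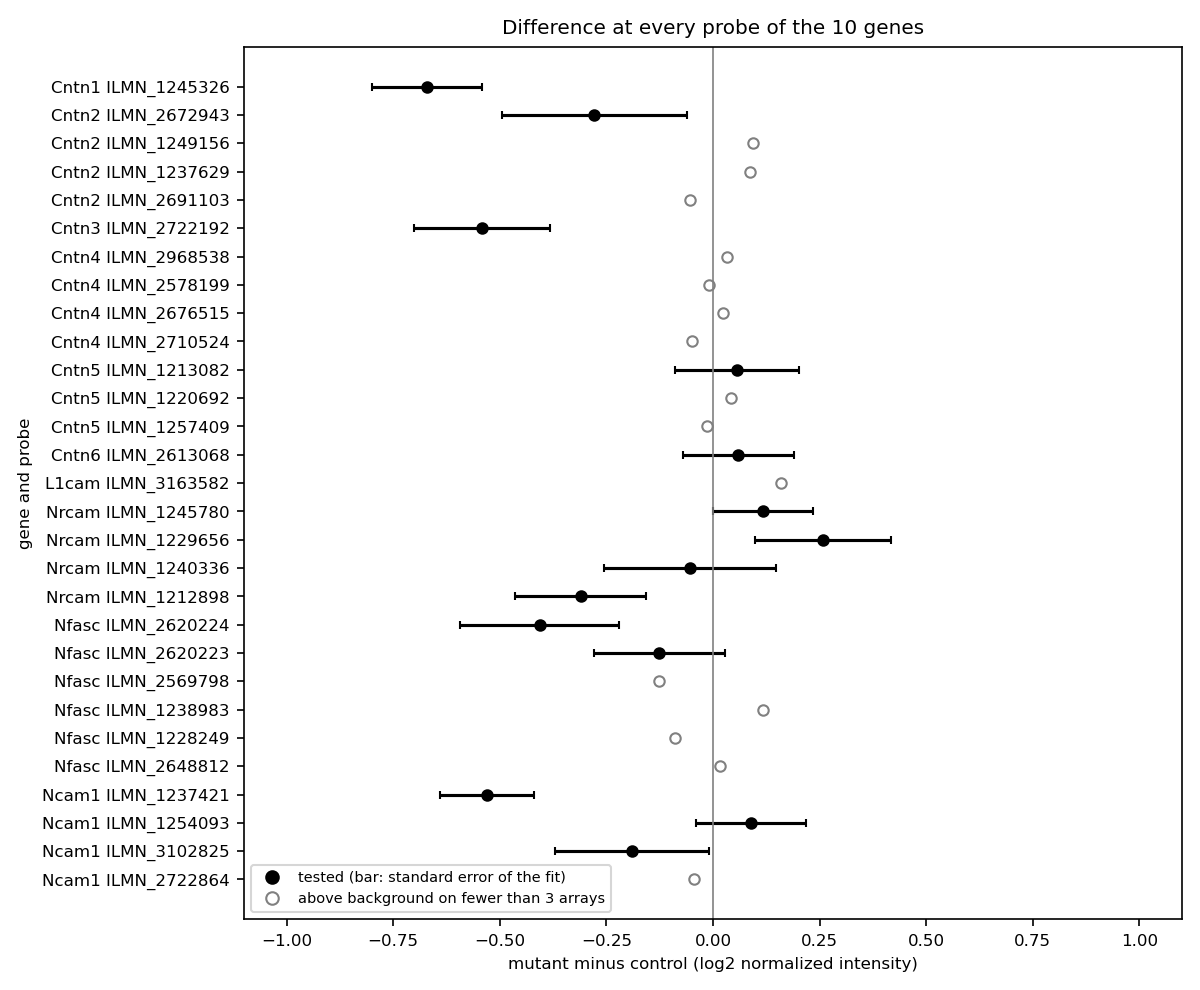
Mutant minus control difference in log2 normalized intensity at all 29 probes of the 10 genes. Filled points are the 14 tested probes with the standard error of the fit, and open points are the 15 probes above background on fewer than 3 arrays. The lowest points are Cntn1 at -0.67, Cntn3 at -0.54 and the Ncam1 probe ILMN_1237421 at -0.53, and the highest is the Nrcam probe ILMN_1229656 at 0.26.

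Among the ankyrin-binding L1 family, L1cam was not above background in either genotype. It is the founding member, lies on the X chromosome, and guides commissural and corticospinal axons. Its only probe was above background on 0 of 6 arrays, with values of 4.61 to 4.97, which cannot show whether it differed between the genotypes.

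Nrcam, a partner of Cntn2 and of semaphorin receptors, had 4 tested probes that did not point one way. The probe ILMN_1245780 read 9.02, 8.93 and 8.93 in controls and 9.16, 9.22 and 8.86 in mutants. The mutant pools on arrays 1R and 2R were above all controls and the pool on array 3R below them, and the difference was 0.12 ± 0.12 (SE). ILMN_1229656 had the same order of mutant pools, at 8.10, 8.10 and 7.56 against 7.75, 7.45 and 7.78, and differed by 0.26 ± 0.16 (SE). Array 3R thus held the lowest mutant value at both of these probes. The 2 further probes were close to background. ILMN_1240336 differed by -0.05 ± 0.20 (SE) with overlapping groups. ILMN_1212898 read 5.27, 5.28 and 5.22 in controls and 4.73, 4.99 and 5.12 in mutants, a difference of -0.31 ± 0.15 (SE), with a signal above background on only 1 of the 3 mutant arrays. Like Cntn3, it met the filter of 3 arrays through the controls. Its groups did not overlap, although the gap between the lowest control and the highest mutant pool was small, and without background correction it differed by -0.14. Averaged over the 4 probes, Nrcam differed by 0.00 ± 0.11 (SE).

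Nfasc encodes neurofascin, which organises the axon initial segment and the node of Ranvier in mature neurons. It is the neighbour of Cntn2 on chromosome 1, with 0 protein-coding genes between them. Of its 6 probes 2 were tested. ILMN_2620224 read 6.86, 6.91 and 6.52 in controls and 6.68, 5.93 and 6.46 in mutants. Mutant array 2R was the low one, mutant array 1R lay within the range of the controls, and the difference was -0.41 ± 0.19 (SE). It was -0.19 without mutant array 2R. ILMN_2620223 read 6.37, 6.65 and 6.52 in controls and 6.67, 6.25 and 6.24 in mutants, so that mutant array 1R held the highest value of all 6, and it differed by -0.13 ± 0.15 (SE). The remaining 4 probes of Nfasc were above background on 0 or 1 of 6 arrays.

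Ncam1 encodes the neural cell adhesion molecule, which is spliced into several forms with different membrane anchors. Of its 4 probes 3 were tested, and they disagreed. ILMN_1237421 read 11.91, 11.77 and 11.65 in controls and 11.23, 11.09 and 11.42 in mutants. All mutant pools were below all control pools there, with means of 11.78 ± 0.13 and 11.25 ± 0.17 (SD, n = 3), a difference of -0.53 ± 0.11 (SE), or a 1.44-fold lower signal. This probe lies far above background, and its difference was -0.52 without background correction and -0.62 to -0.45 leaving out 1 array. ILMN_3102825, annotated to the same transcript, read 6.86, 6.76 and 6.40 in controls and 6.76, 6.11 and 6.58 in mutants. Its groups overlapped, mutant array 2R was the lowest, and the difference of -0.19 ± 0.18 (SE) came to -0.00 without mutant array 2R. ILMN_1254093, annotated to another transcript record, read 8.69, 9.10 and 8.78 in controls and 8.78, 9.01 and 9.04 in mutants. Here the groups overlapped and the difference was 0.09 ± 0.13 (SE). Averaged over the 3 probes, Ncam1 differed by -0.21 ± 0.11 (SE). Which splice forms each probe detects was not analysed here.

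No array was extreme throughout. Of the 14 tested probes, mutant arrays 1R and 2R each held the lowest of the 6 values at 4, control array 5R at 3 and mutant array 3R at 2. Control array 6R held the highest value at 5, control array 5R at 3, and mutant arrays 2R and 3R at 2 each. Array 2R gave the lowest value for Cntn2, for ILMN_2620224 of Nfasc and for 2 of the 3 tested Ncam1 probes.

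**Figure D3:**
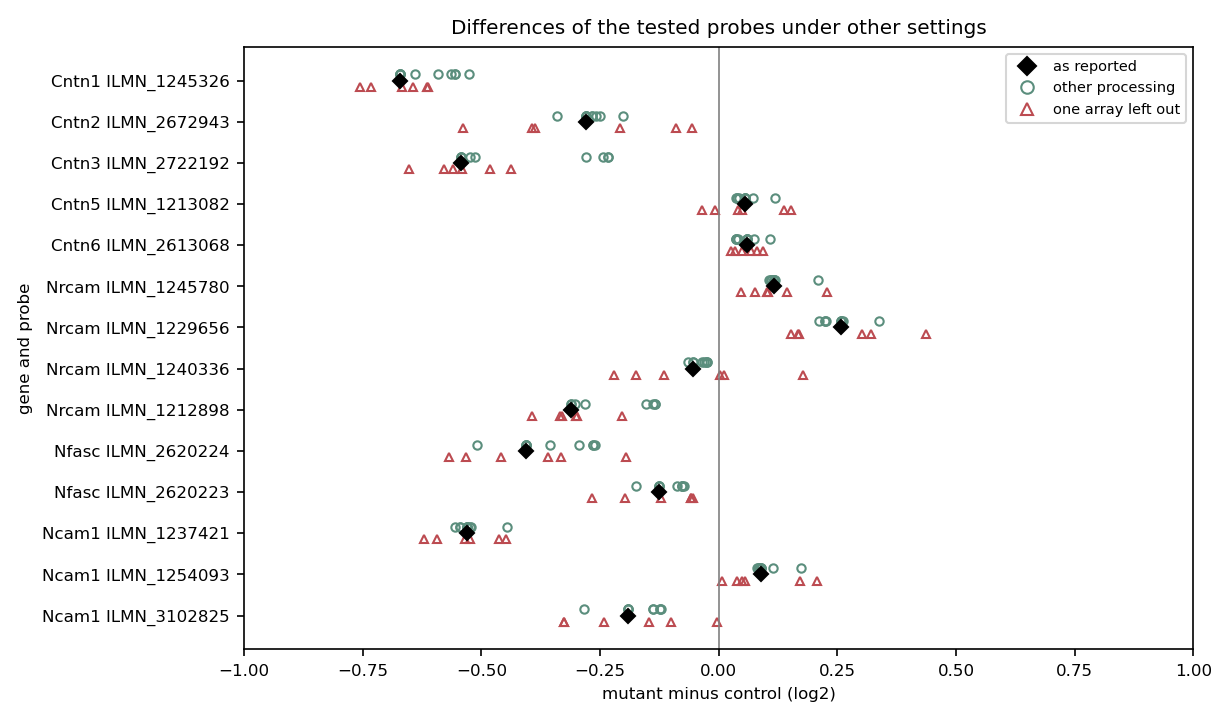
Mutant minus control difference in log2 for each of the 14 tested probes as reported (diamonds), under other processing (circles) and with 1 array left out (triangles). Cntn1 stays between -0.75 and -0.53 and the Ncam1 probe ILMN_1237421 between -0.62 and -0.45, while Cntn3 moves up to -0.23 in the authors' normalized table, and Cntn2 spreads from -0.54 to -0.06.

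The partners of these molecules were read as 67 genes in 8 lists by role, of which 61 had a named probe and 48 were tested with 101 probes. None of the 48 passed an adjusted p of 0.05 (limma, Benjamini-Hochberg), where 0.2% of all tested genes had a passing probe. Of the 101 probes 15 had an unadjusted p under 0.05, with 13 lower and 2 higher in the mutants, beside 8.84% of all tested probes in either direction and 4.86% lower. The groups did not overlap at 13 probes with mutants lower and at 5 with mutants higher, beside 6.6% and 7.42% of all tested probes. Negative differences were found at 66 of the 101 probes, beside 47.9% of all tested probes, and the median difference was -0.05 beside 0.01. These partner counts are a description only, since the lists were also chosen with earlier results of these data known.

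Proteins that bind contactins from the same or the opposite membrane came first. In the Caspr family 2 of 7 genes were tested. Cntnap4 read 7.91, 8.17 and 7.81 in controls and 7.64, 7.60 and 7.73 in mutants at 1 probe, with groups that did not overlap and a difference of -0.31 (adjusted p = 0.519), and its other 2 tested probes differed by -0.28 and 0.00. Cntnap2 differed by -0.25 and -0.15 at its 2 tested probes, with overlapping groups. Cntnap1, the partner of Cntn1, was not tested. Among 6 receptor tyrosine phosphatases, all tested, Ptprs had 1 probe at -0.23 (adjusted p = 0.539) and 4 others between -0.16 and 0.10, and Ptprz1, a receptor for Cntn1, differed by 0.24 and -0.18 at its 2 probes. Ptprd differed by -0.24. Ncam2, the paralog of Ncam1, differed by -0.05.

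Inside the cell, 10 of 14 ankyrin, spectrin and adaptor genes were tested. Ank2, an ankyrin that binds L1-family tails, read 5.97, 5.85 and 5.79 in controls and 5.68, 5.18 and 5.15 in mutants at the probe with the smallest p, a difference of -0.54 (adjusted p = 0.381). Its other 5 tested probes lay between -0.31 and 0.13. Sptbn1, a beta-spectrin, differed by -0.32 at 1 probe (adjusted p = 0.505) and by -0.23 to -0.04 at 3 others. Msn, or moesin, which links membrane proteins to actin, was on the other side of 0, at 0.34 and 0.25.

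Of 12 extracellular ligands 9 were tested. Mdk, midkine, a growth factor that binds Ptprz1, read 12.05, 12.00 and 12.05 in controls and 12.30, 12.30 and 12.24 in mutants, with groups that did not overlap and a difference of 0.25 (adjusted p = 0.435), and its 2 other tested probes differed by 0.16 and 0.26. App, the amyloid precursor and a ligand of several contactins, lay between -0.28 and -0.05 at 4 probes. Ncan, neurocan, a proteoglycan that binds L1cam and Ncam1, differed by -0.23 (adjusted p = 0.581). The polysialic acid enzymes St8sia2 and St8sia4, which modify Ncam1, differed by -0.30 at the 1 probe of St8sia2 and by -0.32 and -0.20 at the probes of St8sia4, with overlapping groups at all 3, and St8sia3 by 0.04 and -0.04. The shedding protease Bace1 differed by -0.25 (adjusted p = 0.567) and Adam17 by -0.05 and -0.01.

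Of 19 coreceptors and signalling genes 14 were tested. Sema3f, a repellent whose receptor complex includes Nrcam, read 10.44, 10.59 and 10.40 in controls and 10.26, 9.88 and 10.15 in mutants, a difference of -0.38 (adjusted p = 0.380), and its second probe differed by -0.39 (adjusted p = 0.435). The groups did not overlap at either probe. Src, a kinase downstream of L1cam, differed by -0.41 at 1 probe (adjusted p = 0.435) and by -0.15 at another. Alcam, an adhesion molecule of the same superfamily, differed by -0.37 (adjusted p = 0.521), with overlapping groups.

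**Figure D4:**
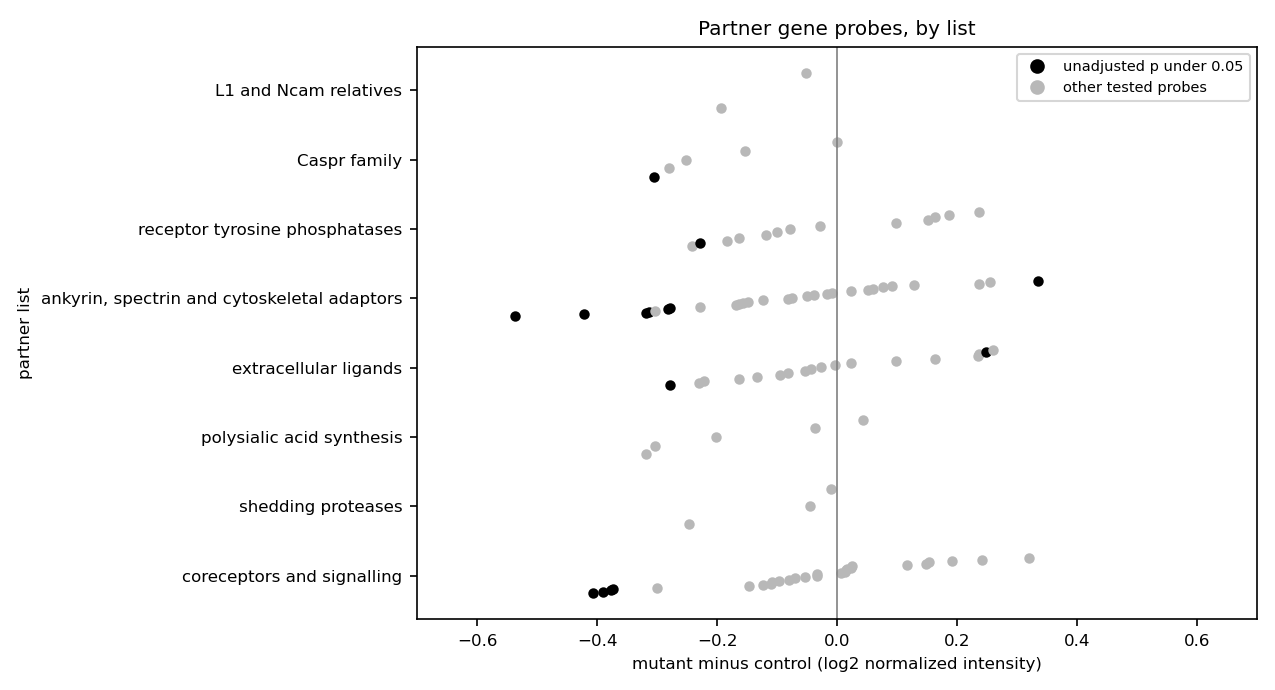
Mutant minus control difference in log2 normalized intensity at the 101 tested probes of 48 partner genes, by list. Black points have an unadjusted p under 0.05, and none passed after adjustment; the lowest is a probe of Ank2 at -0.54 and the highest a probe of Msn at 0.34.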

How the data were processed

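Per the labels' protocols, Trizol was used for RNA extraction and the cRNA was labelled with biotin. The authors deposited a table of linear probe intensity, not normalized per its title, with a detection p-value beside each intensity column, which the deposited table gives per probe and array. The submitters' processing notes name GenomeStudio 1.0. Column names give genotype and an array number that is in no sample title, so columns were used as replicates of a group without a number. A second deposited table of linear intensity, normalized by the authors (every column median 86.4, method not stated), served as an alternative on the log2 scale.

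The neqc function of limma 3.58.1 (R 4.3.3) corrected background by normexp from the detection p-values with an offset of 16, quantile-normalized the arrays and took log2. A probe was tested if its detection p-value was under 0.05 on 3 or more of the 6 arrays, which kept 19936 of 45276. Names came from the platform annotation: 34881 probes had 1 symbol, 18 several and 10377 none, and the gene table of GRCm38.p6 changed 0 symbols. Mutant minus control was fitted per probe (lmFit, eBayes with an intensity trend), with Benjamini-Hochberg adjustment over all tested probes at 0.05. On simulated arrays of this comparison with 20130 tested probes, 26% of 50 probes with a 1.5-fold change and 80% of 50 with a 2-fold change were recovered. The changed probes were drawn only from detected probes with a mean log2 intensity above 6. Recovery closer to background, where Cntn3 and some Nrcam probes lie, was not measured. Precision is limited by the small number of arrays.

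All probes of the 10 genes are reported. Partner genes are named if past the threshold, and up to 3 per list with the smallest p. Members and lists were chosen with earlier results of these data known. Apart from the pan-neuronal, serotonergic and neural progenitor lists, the marker lists gave the following tested genes and median differences: GABAergic 5 of 6 (-0.37), glutamatergic 2 of 6 (0.02), motor neuron 3 of 6 (0.07), endothelial 5 of 6 (0.03), microglial 4 of 5 (-0.12), erythroid 5 of 6 (0.18), mesenchymal and mural 2 of 7 (0.49), neural crest and glial precursors 1 of 5 (-0.18), rhombomere 1 and isthmus 4 of 6 (-0.14) and neighbouring regions 3 of 5 (0.18). The mesenchymal and mural median rests on 2 probes, Acta2 at 1.34 (limma adjusted p = 0.00211) and Rgs5 at -0.35 (adjusted p = 0.709).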

Additional observations from a re-analysis of the deposited data

How the results depend on the processing

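No tested probe of the 10 genes passed in the authors' normalized table, with median scaling, with background left in, with an offset of 50, with a stricter detection filter or none, with 1 probe per gene, with array weights, without the intensity trend, or with any 1 array left out. The stricter filter left 11 of these probes to test, without Cntn3, and 1 probe per gene left 8. Cntn1 was the 1 call where probes of a gene were averaged, and also the 1 call at a threshold of 0.1 (adjusted p = 0.0855); over the alternatives at probe level its adjusted p was 0.0659 to 0.482. Of the tested partner genes 0 passed under any of these settings. The count of changed probes over the whole array, 29 as reported, was 19 without the intensity trend. Counted as named genes with any passing probe, the reported result was 21. Where 1 probe or the mean of the probes stood for a gene, which leaves fewer units to test, 18 and 19 genes passed. Leaving out 1 array gave 9 to 102 changed probes. It was 9 without control array 5R, 10 without control array 6R and 11 without control array 7R. Without mutant array 1R there were 102, and the cause was not tested. Same-numbered samples did not deviate together in the authors' normalized table (correlations of -0.04, -0.09 and -0.30 across probes). Samples of unlike number had correlations of -0.10 to 0.19. With 3 arrays per group, these values cannot tell whether same-numbered samples share a litter or a day. With a replicate block in the authors' normalized table, the count of changed probes was 17, against 30 without the block, and 0 of the 14 tested probes passed. The block was not run on the intensity table, whose columns carry no replicate number, and slides could not be used as a block. Signal over background limits Cntn3 and ILMN_1212898 of Nrcam, whose differences shrank to -0.23 and -0.13 in the authors' normalized table.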
